A study of Mus musculus with 2 samples.

Results

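The circadian clock genes of HT22 cells were followed in 2 arrays, 1 of cells given the compound J147 for 1 h and 1 of cells given the DMSO vehicle for the same time. The 10 genes were listed by their role in the clock, with earlier results of these data known, and every probe set that the annotation gives to them was taken. Leaving control probe sets aside, this gave 23 of 45037 probe sets and 10 of the 18193 genes that the annotation lists. HT22 is a nerve cell line made from mouse hippocampus, and J147 is a synthetic compound that was selected for neurotrophic activity. Both cultures were plated in DMEM with fetal calf serum and treated the next day. The methods give the dose as 10 μM and the sample labels as 10 mM. There was no replicate, so no difference below has a test or an error, and an effect of J147 cannot be told apart from other ways in which the cultures differed, such as the phase of their clocks at harvest. In bulk RNA, a change in some cells of a culture and a smaller change in all of them cannot be told apart either.

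The mammalian clock is a feedback loop of transcription. CLOCK and BMAL1, the product of Arntl, form the positive arm. They bind E-box sequences together and switch on the Per, Cry and Nr1d genes and the output gene Dbp. PER and CRY proteins form the negative arm, since they enter the nucleus and block CLOCK and BMAL1. The nuclear receptors REV-ERBα and REV-ERBβ, encoded by Nr1d1 and Nr1d2, close a further loop by repressing Arntl. Per1 and Per2 also respond quickly to outside signals, through CREB and other factors, and in this way a stimulus can reset the clock of a cell.

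The authors deposited log2 intensities made with gcRMA, a summary of the probes of each probe set that corrects for background. Both arrays were scaled here to the same median, 100, and the 22545 probe sets with a scaled mean above 100 were scored. The lowest value of the table, a log2 intensity of 2.23, is a floor where 46.3% of probe sets lay for vehicle and 46.0% for J147. Levels at the floor have no order. After scaling, the floor stood at 95.4 for vehicle and 95.1 for J147, so a scored probe set can lie close to it. Over all scored probe sets the log2 difference, J147 minus vehicle, had a median of -0.00 and an SD of 0.18. Of these probe sets, 18.9% had identical deposited values on both arrays, and they count in the medians, spreads and shares below. The 18S rRNA controls had a median log2 difference of -0.63, the labelling spikes of -0.16 and the hybridization spikes of 0.13. The part of these shifts in the results below was not tested. Most neuron markers were at the floor, since 2 of 8 (Tubb3 and Syp) were above it, against 7 of 8 fibroblast markers, 2 of 7 astrocyte markers and 2 of 7 microglia markers. Map2, Snap25 and Rbfox3 were at the floor on both arrays.

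With each gene read from its brightest probe set, the medians of the clock arms lay on opposite sides of 0. Of the 7 negative-arm genes, each read from its brightest probe set, 6 were higher on the J147 array and 1, Per3, was lower, while both positive-arm genes were lower. Over all 10611 scored genes, 35.5% had a log2 difference above 0.005 and 46.3% had one below -0.005. Counted as scored probe sets, the PER genes were split. Of their 5, 2 lay above 0.005 and 2 below -0.005, with a median of -0.00. All 4 of the other negative-arm genes lay above, and all 5 of the positive arm lay below, of which 4 belong to Clock. These counts have no share of all scored probe sets beside them and are a description only. The median log2 difference was 0.34 for the 3 PER genes, 0.43 for the other 4 negative-arm genes and -0.35 for the 2 positive-arm genes, against -0.00 for all scored genes. The median of the PER genes was 0.69 above that of the positive arm, the median of the other negative-arm genes was 0.78 above it, and the PER genes were 0.09 below the other negative-arm genes. With 1 array per condition these gaps were not tested. Without Per2, a setting chosen after the values were seen, the PER median was 0.15, and without probe sets of the suffixes _x_at, _s_at and _a_at, which removes Arntl, the positive-arm median was -0.19.

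The size of most differences was modest. All 10 genes had a scored probe set, and 16 of the 23 probe sets were scored. Of the genes, 1, Per2, passed 1.5-fold upward with J147 and none passed it downward, where 0.556% of all scored genes were at least 1.5-fold higher and 0.81% were at least 1.5-fold lower. Counted as probe sets, 1 of the 16 passed 1.5-fold upward and none downward, against 0.856% and 0.781% of all scored probe sets. At a threshold of 1.25-fold, chosen after the values were seen, 5 of the 10 genes were higher and 1 was lower. The share of all scored genes past that threshold was 2.31% for higher and 4.05% for lower. The 5 genes were Per1, Per2, Cry2, Nr1d1 and Nr1d2, all of the negative arm, and the 1 lower gene was Arntl.

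**Figure D1:**
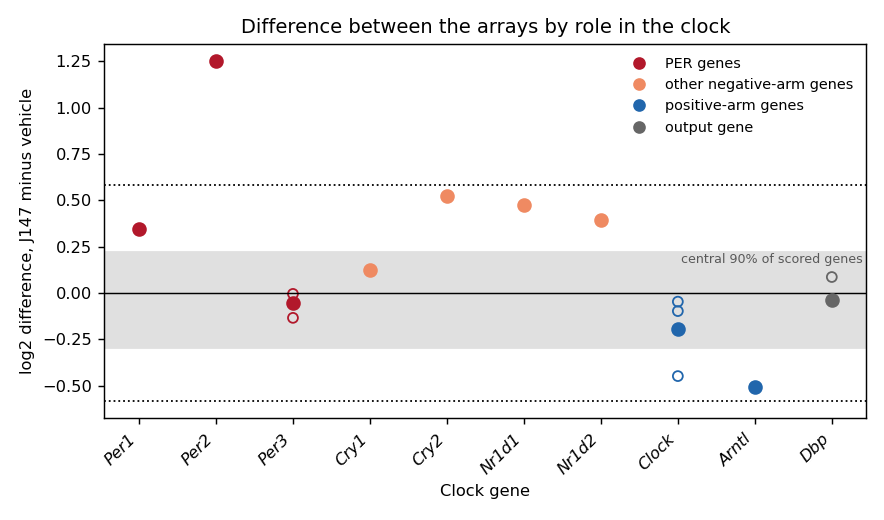
Log2 difference, J147 minus vehicle (vertical axis), of the 10 clock genes (horizontal axis). Filled points are the brightest probe set of a gene and open points its other scored probe sets. The grey band holds the central 90% of all scored genes, from -0.30 to 0.22, and the dotted lines mark 1.5-fold. Per1, Per2, Cry2, Nr1d1 and Nr1d2 lie above the band, and Arntl and 1 of the open points of Clock, at -0.45, lie below it.

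Sequences near the start of the genes are shown as a description, since CLOCK and BMAL1 activate the negative-arm genes through E-boxes. Of these 7 genes, 6 were higher, all but Per3. RefSeq promoter windows of GRCm38.p6, which run from 250 bases before a transcript start to 50 bases after it, were read for 9 members with 13 windows in all: Per1, Per3, Cry1, Cry2, Nr1d1, Nr1d2, Clock, Arntl and Dbp. Per2 was not searched. The windows were searched on both strands for the E-box CACGTG, the related E′-box CACGTT, the cAMP response element TGACGTCA and its core TGACG, the D-box spellings TTATGTAA and TTACGTAA, the nuclear receptor site AGGTCA and the CArG box. In the stretches below, all upstream of the start and written 5′ to 3′ on the strand of the gene, capitals mark a match on either strand. Per1 is chr11:69098699-69098827 on the plus strand, Cry1 is chr10:85185055-85185143, Cry2 is chr2:92434220-92434288 and Per3 is chr4:151044806-151044880, the last 3 on the minus strand.
Per1: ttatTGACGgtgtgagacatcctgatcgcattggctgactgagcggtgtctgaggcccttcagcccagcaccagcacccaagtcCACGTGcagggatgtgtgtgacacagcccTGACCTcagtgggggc
Cry1: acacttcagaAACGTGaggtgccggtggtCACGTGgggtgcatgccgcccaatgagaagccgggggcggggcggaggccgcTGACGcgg
Cry2: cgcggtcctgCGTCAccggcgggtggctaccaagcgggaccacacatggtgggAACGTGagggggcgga
Per3: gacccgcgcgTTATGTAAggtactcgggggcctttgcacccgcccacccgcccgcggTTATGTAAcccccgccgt

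In the Per1 stretch the capitals are, in order, a TGACG core, an E-box that begins 166 bases before the start, and an AGGTCA site on the opposite strand. Cry1 had an E′-box on the opposite strand from 79 bases before its start, an E-box from 60 bases before it and a TGACG core from 8 bases before it. Cry2 had a TGACG core and an E′-box, both on the opposite strand. An E-box or E′-box was found in 4 of the 13 windows, 1 each of Per1, Cry1, Cry2 and Nr1d1, and in 11.4% of all 32851 windows. These 4 genes were higher on the J147 array, and so was Nr1d2, whose window held neither box. A link between the boxes and the differences was not tested. The members were chosen as clock genes, a class known for E-boxes, and Per2 is not among the windows. An E-box alone stood in 7.15% of all windows and an E′-box in 4.68%.

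The window of Per3 held no E-box or E′-box. It held the D-box TTATGTAA at 2 places, from 205 and from 158 bases before the start, and 0.938% of all windows hold that spelling of the D-box. The TGACG core was found in 3 members, Per1, Cry1 and Cry2, and in 20.8% of all windows, while the complete cAMP response element, which 1.79% of all windows hold, and the CArG box, which 1.63% hold, matched none of the 9 members searched. The D-box spelling TTACGTAA, in 0.119% of all windows, matched none either. The AGGTCA site was found in Per1, Nr1d2, Clock and Arntl and in 16.3% of all windows. Of the letters searched, the windows of Dbp held none, and Clock and Arntl held only the AGGTCA site. These are matches of letters in short windows and say nothing of binding.

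The PER genes encode the period proteins, which carry the repression of the negative arm, and each of the 3 gave a different answer. Per2 had the largest difference of the 10 members. On probe set 1417602_at the scaled intensity was 289 in the vehicle culture, a low level, and 689 in the J147 culture. The fold was 2.38 and the log2 difference 1.25. This was place 3 from the top of all scored genes and place 6 of all scored probe sets. The mean level of 1613 more scored probe sets was within 0.5 log2 units of its own, of which 1 had a difference at least as high, and the SD of their differences was 0.24. The other Per2 probe sets, 1417603_at and 1457350_at, were at the floor on both arrays and therefore could not show a difference. In the annotation, 1417603_at carries the same sequence record as 1417602_at, so the value for Per2 rests on 1 of 2 probe sets listed for that record.

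Per1, which light induces quickly in the clock of the brain, was measured by 1 probe set, 1449851_at. The scaled intensities were 578 with vehicle and 734 with J147, giving a fold of 1.27 and a log2 difference of 0.34. It stood at place 205 from the top of the scored genes, and 105 of 1673 scored probe sets near it in level had a difference at least as high. The difference of Per1 thus had the direction of that of Per2 and was smaller.

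Per3 was not higher with J147 on any of its 6 probe sets. The brightest, 1421087_at, had scaled intensities of 1054 with vehicle and 1016 with J147, a log2 difference of -0.05. Probe set 1442243_at, at a low level, had 184 and 168, a log2 difference of -0.13. Probe set 1421086_at was deposited with 1 value for both arrays, 2.36 on the log2 scale. Of the remaining 3, 1441445_at and 1460662_at were at the floor on both arrays, and 1458176_at had log2 intensities of 2.37 for vehicle and 2.23, the floor, for J147. The log2 difference of Per2 was 1.31 above that of Per3, a gap of single values with no error.

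**Figure D2:**
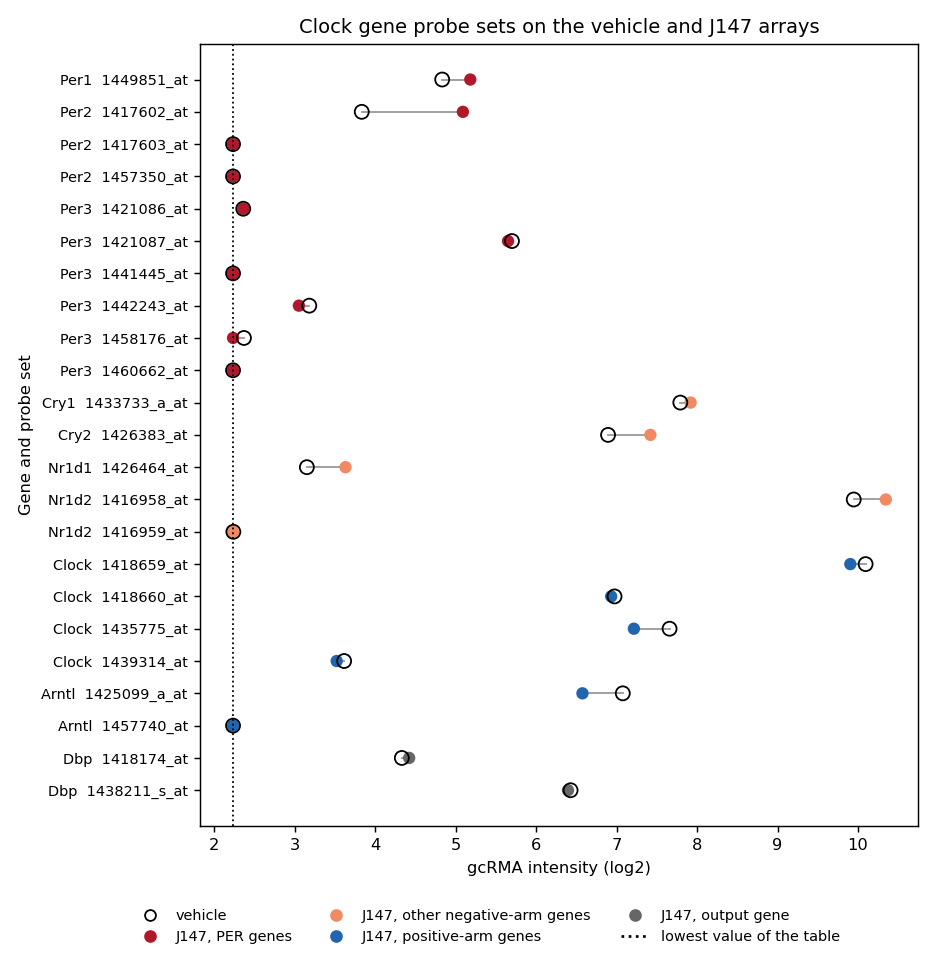
Deposited gcRMA intensity on the log2 scale (horizontal axis) of each of the 23 clock probe sets (vertical axis) with open circles for vehicle and filled circles, coloured by role, for J147. The dotted line marks the floor of the values, 2.23. Per2 1417602_at has the longest line between its arrays, all 4 Clock probe sets lie lower with J147, and levels of different probe sets cannot be set against each other.

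Among the other genes of the negative arm, the cryptochromes were both higher with J147. Cry2, whose protein represses CLOCK and BMAL1 together with PER, had scaled intensities of 2411 with vehicle and 3461 with J147 on its single probe set 1426383_at. The fold was 1.44 and the log2 difference 0.52, at place 74 from the top of the scored genes. Of 2616 scored probe sets near it in level, 35 had a difference at least as high. Cry1, its paralogue and the stronger repressor, had 4493 with vehicle and 4894 with J147 on probe set 1433733_a_at, a fold of 1.09. Its log2 difference of 0.12 lay within the SD of 0.18 of the probe sets near it in level.

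Both REV-ERB genes were higher as well. Nr1d2 had scaled intensities of 20004 with vehicle and 26285 with J147 on probe set 1416958_at, a fold of 1.31 and a log2 difference of 0.39. Differences between the arrays were small at this level, with an SD of 0.14, and 15 of 1956 scored probe sets near it in level had a difference at least as high. Its other probe set, 1416959_at, was at the floor on both arrays. Nr1d1 was read close to the floor, with scaled intensities of 180.2 with vehicle and 251 with J147 on its single probe set 1426464_at. Its fold was 1.39 and its log2 difference 0.48, and 40 of 1900 scored probe sets near it in level were at least as high.

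The positive arm was lower with J147 on every scored probe set. Arntl, the gene of BMAL1 and the target of REV-ERB repression, had scaled intensities of 2737 with vehicle and 1928 with J147 on probe set 1425099_a_at, which made it 1.42-fold lower with a log2 difference of -0.51. It was at place 135 from the bottom of the scored genes, and 45 of 2430 scored probe sets near it in level had a difference at least as low. The suffix of this probe set marks probes shared by transcripts of 1 gene. The other Arntl probe set, 1457740_at, was at the floor on both arrays, so Arntl too rests on 1 probe set.

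Clock, which encodes the partner of BMAL1, was the only member with 4 scored probe sets, and all 4 were lower with J147 by different amounts. The brightest, 1418659_at, had scaled intensities of 22159 with vehicle and 19361 with J147, a log2 difference of -0.19. The largest difference was that of 1435775_at, with 4096 for vehicle against 3002 for J147, which is 1.36-fold lower with a log2 difference of -0.45. Of the 2653 scored probe sets near it in level, 58 were at least as low. For the brightest, 1418659_at, this held for 128 of 2045. Probe set 1418660_at had 2549.6 and 2469, a log2 difference of -0.05, and 1439314_at, at a low level, had 248 and 232, a log2 difference of -0.10. Neither 1418660_at nor 1439314_at exceeded the SD of the probe sets near it in level, 0.21 for both. The probe sets of Clock thus lay on 1 side of 0 and differed in size.

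Dbp, a D-box activator that CLOCK and BMAL1 drive and a usual reporter of their activity, gave probe sets on both sides of 0. Probe set 1438211_s_at had scaled intensities of 1746 with vehicle and 1702 with J147, a log2 difference of -0.04. Probe set 1418174_at had 408 and 433, a log2 difference of 0.09. Neither exceeded the SD of the probe sets near it in level, 0.24 for both. The suffix of the first marks probes that several genes may share.

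**Figure D3:**
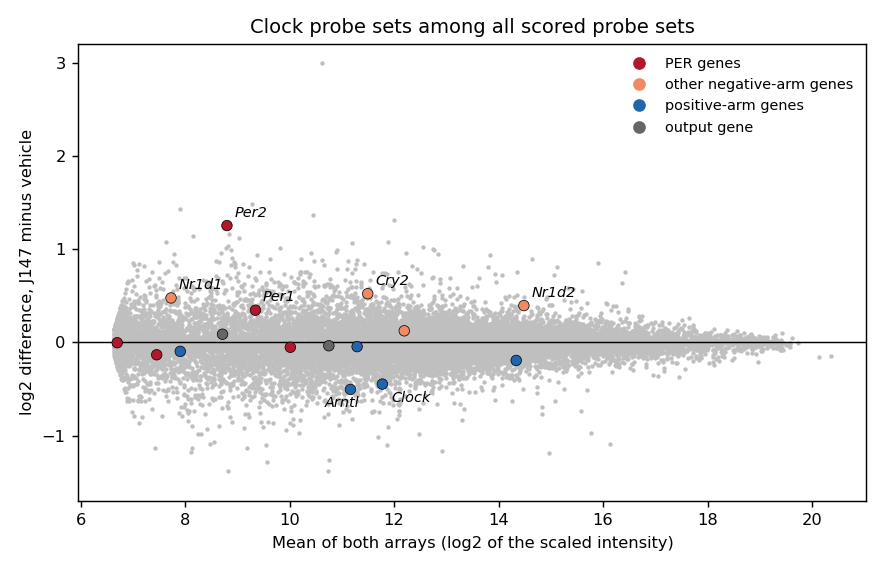
Log2 difference, J147 minus vehicle (vertical axis), against the mean of both arrays on the log2 scale of the scaled intensity (horizontal axis), for the 22545 scored probe sets (grey) and the 16 scored clock probe sets (coloured by role). The spread of the grey points narrows toward high levels, where Nr1d2, with a log2 difference of 0.39, stands near the upper edge, and Per2, with 1.25, stands above nearly all points of its level.

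The 3 probe sets of other single genes closest to Per2 1417602_at in mean level and log2 difference, among 19551 candidates, belonged to Chka, Hbegf and Nfe2l2. Chka, a choline kinase, went from 307 to 689 at a distance of 0.10 log2 units from Per2. Hbegf, a growth factor of the EGF family, went from 317 to 648 at 0.22, and Nfe2l2, the gene of the antioxidant regulator NRF2, from 309.6 to 626 at 0.24. Likeness over 2 arrays is a description only.

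The other genes of the clock pathway, in 5 lists with 62 genes, lay on both sides of 0. The annotation listed 57 of them, of which 48 were scored. The median log2 difference of the 48 was -0.01, with 3 genes at least 1.5-fold higher, 1 at least 1.5-fold lower and 44 neither, where the shares of all scored genes are 0.556% and 0.81%. Of 12 other clock transcription factors, 6 were scored, with a median of 0.15. Bhlhe40, the gene of DEC1, which represses CLOCK and BMAL1 at E-boxes, had scaled intensities of 9382 with vehicle and 14201 with J147 and was 1.51-fold higher. Nfil3, which represses at D-boxes, had 5095 and 4328, a log2 difference of -0.24. Tef, a relative of Dbp, had a log2 difference of 0.33 on its brightest probe set, and Ciart, a further repressor of the loop, had 0.16. The genes Npas2, Arntl2, Rora, Rorb and Bhlhe41 were not scored.

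Genes whose products modify clock proteins mostly lay close to 0. Of 13 scored kinases, phosphatases and ubiquitin ligases, none was 1.5-fold different, and their median was -0.00. The probe set with the largest difference was 1435373_at of the casein kinase gene Csnk1e, with 404 for vehicle and 524 for J147. However, the brightest Csnk1e probe sets had log2 differences of 0.03 and 0.17. By gene the largest was Csnk2a1, with -0.24 on its brightest probe set, while its other probe sets lay from -0.00 to 0.04. None of 10 scored cofactors passed 1.5-fold, and 8 of them were below -0.005, as were 46.3% of all scored genes, with a median of -0.07. The histone demethylase gene Kdm5a had the largest difference, -0.32, on its brightest probe set, while another had 0.28.

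Of 8 scored output genes, which follow the clock in many tissues, 1 passed 1.5-fold downward (0.81% of all scored genes) and none upward, with a median of 0.00. The lower gene was Cdkn1a, the cell cycle inhibitor p21 and a p53 target, with log2 differences of -0.74 and -0.69 on its 2 probe sets. Cirbp, a cold-inducible RNA-binding protein gene, and Noct, the deadenylase gene nocturnin, had log2 differences of 0.49 and 0.35.

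The input genes were listed for a part in how the clock responds to outside signals, whether relaying or limiting it. Of 11 scored, 2 passed 1.5-fold upward (0.556% of all scored genes) and none downward, and their median was -0.00. The higher ones were Egr1, an immediate early transcription factor gene, with 2580.1 for vehicle and 6414 for J147, and Id2, an inhibitor of basic helix-loop-helix factors, with log2 differences of 0.64 and 0.90 on its bright probe sets. The third Id2 probe set had identical deposited values. Creb1, the gene of CREB, had a log2 difference of -0.29 on its brightest probe set, and Sik1, a kinase that limits the response of the clock to light, had -0.33 on its brightest probe set and 0.35 on another at a low level. Junb had 0.45 and the GTPase gene Gem had -0.51. Fos was near the floor, at log2 intensities of 2.62 with vehicle and 2.46 with J147. Tef, Ciart, Nfil3, Csnk2a1, Cirbp, Noct, Creb1, Sik1, Junb, Gem and Fos were named after their values were seen.

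**Figure D4:**
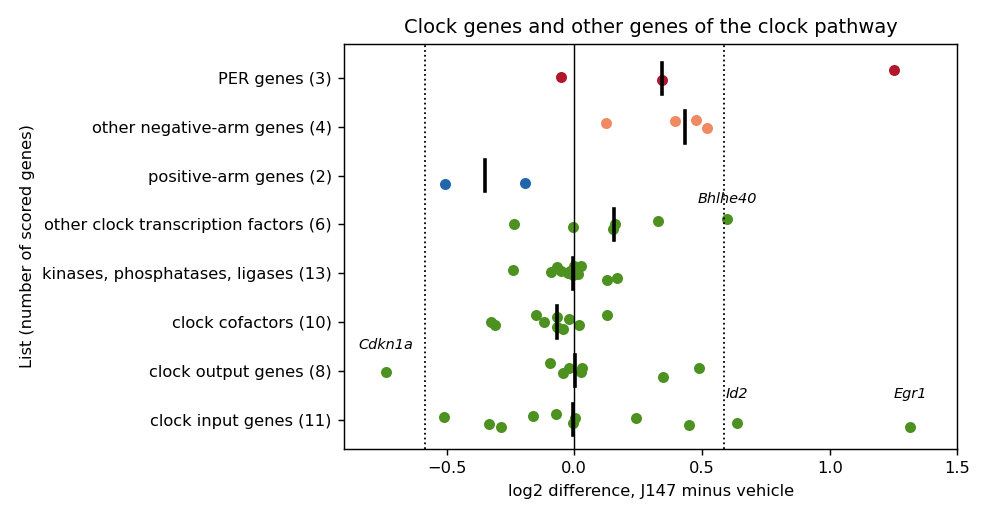
Each point is a scored gene of the clock arms or of 5 other lists of the clock pathway (vertical axis, with how many were scored), at its log2 difference, J147 minus vehicle, on the horizontal axis. Black bars are medians and dotted lines mark 1.5-fold. The medians of the negative arm, 0.34 and 0.43, stand to the right of every other list, and that of the positive arm, -0.35, stands to the left.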

How the data were processed

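RNA of HT22 cells was hybridized to Affymetrix mouse GeneChip arrays, 1 for J147 and 1 for vehicle. Per the labels, Affymetrix Expression Console version 1.0 was used, and the authors ran gcRMA in R, so the deposited values are log2 intensities per probe set. For gcRMA no version is named in the sources used here. Missing from the deposited values are the scaling to a median of 100 and the filter above 100 of the methods, so both were applied here. gcRMA pulls low values to a common floor, which hides differences there.

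Probe sets with 1 gene symbol (34945 of 45037, with 932 having several and 9160 none) were named through the Entrez number and RefSeq GRCm38.p6. A gene was read from its brightest scored probe set. No test or interval was possible with 1 array per condition, and the number of arrays limits the precision. The spread near a probe set is the SD over other scored probe sets within 0.5 log2 units of its mean level. The members and lists were chosen with earlier results of these data known. Outside the 10 members, the rule named genes with a scored probe set at least 1.5-fold different or, in a list with none, the most different one, and the 3 probe sets nearest to the most different member. Alternatives covered scaling, quantile normalization, a lowess curve (span 0.3), a pseudocount of 50, filters, probe set choice and thresholds. Scripts ran under statsmodels 0.14.6, pandas 2.3.3, numpy 2.4.6, matplotlib 3.10.9 and Python 3.11.15 and were tested on simulated data.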

Additional observations from a re-analysis of the deposited data

How the results depend on the processing

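Of 118 values recomputed with another choice, 115 moved little, that is within 1 SD of the probe sets of like level for a probe set, within the SD of all scored probe sets (0.18) for a median and within 1.5 times for a count. The other 3 came from choices made after the data were seen. At 1.25-fold, 5 members were higher and 1 was lower, by construction of the looser threshold, and without Per2 the median of the PER genes was 0.15. The median of all 7 negative-arm genes was then 0.37. Part of the small movement was fixed in advance. The values as deposited shift every log2 difference by 1 constant. The filters and probe set choices left the PER median unchanged, since it is that of Per1, which has 1 probe set. None of the choices makes up for the missing replicates. Under the scaling, quantile, lowess and pseudocount alternatives the log2 difference of Per2 1417602_at ran from 1.12 to 1.26 and that of Arntl 1425099_a_at from -0.51 to -0.48. Without probe sets of the suffixes _x_at, _s_at and _a_at, which removes Arntl and Cry1, the positive-arm median was -0.19, the value of Clock alone. In the main setting it was -0.35, and this shift counts among those that moved little. No paired analysis was possible because there was 1 array per condition and the labels give no replicate numbers. The floor limits what Per2, Per3, Nr1d2 and Arntl can show, since at least 1 probe set of each lay at it on both arrays.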
